A study of Mus musculus with 6 samples.

Results

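The Hippo pathway was read gene by gene in mouse oocytes with and without a truncating mutation of *Bnc1*. Its 37 genes were taken by gene symbol from a hand-written list that runs from the upstream regulator *Nf2* to transcriptional targets, and 36 of them were listed among the 17577 genes of the deposited tables. *Dchs1*, which encodes a ligand of FAT cadherins, had no row under its symbol and was not analysed here. The libraries came from germinal vesicle (GV) oocytes, the fully grown oocytes that are still arrested before meiotic maturation, of 12-week-old C57BL/6 J mice. One group held 3 libraries of the genotype Bnc1tr/tr, homozygous for a frameshift allele that truncates the zinc finger protein basonuclin 1, and the other held 3 libraries of the wild-type (WT) genotype. The allele is carried in every cell of the mouse and not only in the oocyte. Females had been primed with a gonadotropin in both genotypes, according to the study's methods, and a single oocyte was lysed for each cDNA. The labels do not say which libraries came from the same animal or litter, so the p-values measure only the spread between these libraries, which may be technical.

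Hippo signalling is a kinase cascade that holds back tissue growth. Upstream proteins at the cell cortex, among them merlin (the product of *Nf2*), bring the MST and LATS kinases together, and LATS then phosphorylates YAP and TAZ, which stay out of the nucleus. When the cascade is quiet, YAP and TAZ enter the nucleus and switch on genes together with TEAD factors, which bind the DNA. In the ovary the pathway is known for its part in follicle activation and growth, and much of its control acts on protein phosphorylation and location, which RNA levels do not show.

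Levels are given in FPKM, the number of fragments relative to transcript length and to the mapped fragments of the library. Differences are given as the mean of log2(FPKM + 1) in Bnc1tr/tr minus that in WT, with the standard error (SE) and limma's p adjusted over all 10560 tested genes. A gene was tested where its mean over the 6 libraries was at least 1 FPKM, and it was called where the adjusted p was under 0.05 and the absolute difference over 0.5. The scale understates the change of genes with low values.

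As a check on the labels, *Bnc1* itself was read first, and it stood at 9.04, 6.51 and 5.83 FPKM in Bnc1tr/tr against 13.17, 12.54 and 16.23 FPKM in WT (difference -0.89, SE 0.20, limma adjusted p = 0.0090). The tables give no read counts. Depth estimated from the steps of low values was 13.2 to 21.5 M fragments (M, mega), at which 3 fragments on 1 kb of transcript equal 0.140 to 0.227 FPKM, for counting error only. Genes above 0 FPKM numbered 15258 to 15736 in Bnc1tr/tr and 13896 to 14576 in WT libraries, without overlap. The median difference of all tested genes was 0.15 in the deposited values, -0.05 with libraries scaled by the median ratio and -0.10 once quantiles had been normalized. All 10 oocyte markers were at 1 FPKM or more in every library, and 1 of them was called lower in Bnc1tr/tr, the zona pellucida gene *Zp2* (-0.74, SE 0.22, limma adjusted p = 0.032).

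Of the 37 genes, 24 were tested, and 14 of them were higher and 0 lower in Bnc1tr/tr oocytes by limma. Over all tested genes, 24.1% were called higher and 7.68% lower, and 27.6% were called higher among genes within the range of mean FPKM of the tested Hippo genes (1.14 to 41.5 FPKM). The median difference was 0.94 for the 24 tested Hippo genes. That median and the count of 14 are raised by 8 genes that passed the filter only through their Bnc1tr/tr level, since their WT mean was under 1 FPKM, and 7 of these 8 were called. Of the 16 that averaged 1 FPKM or more in both genotypes, 7 were called higher, with a median difference of 0.36. The same limit over all genes left 19.0% called higher and a median of 0.09. With no filter on low values, 14 of the 36 listed Hippo genes were called higher, beside 15.6% of 17574 genes. The groups did not overlap, with Bnc1tr/tr higher, for 16 of the 24 tested Hippo genes and for 32.7% of all tested genes. As the list was drawn up with earlier results of these data known, these shares describe it and are no test of it.

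**Figure D1:**
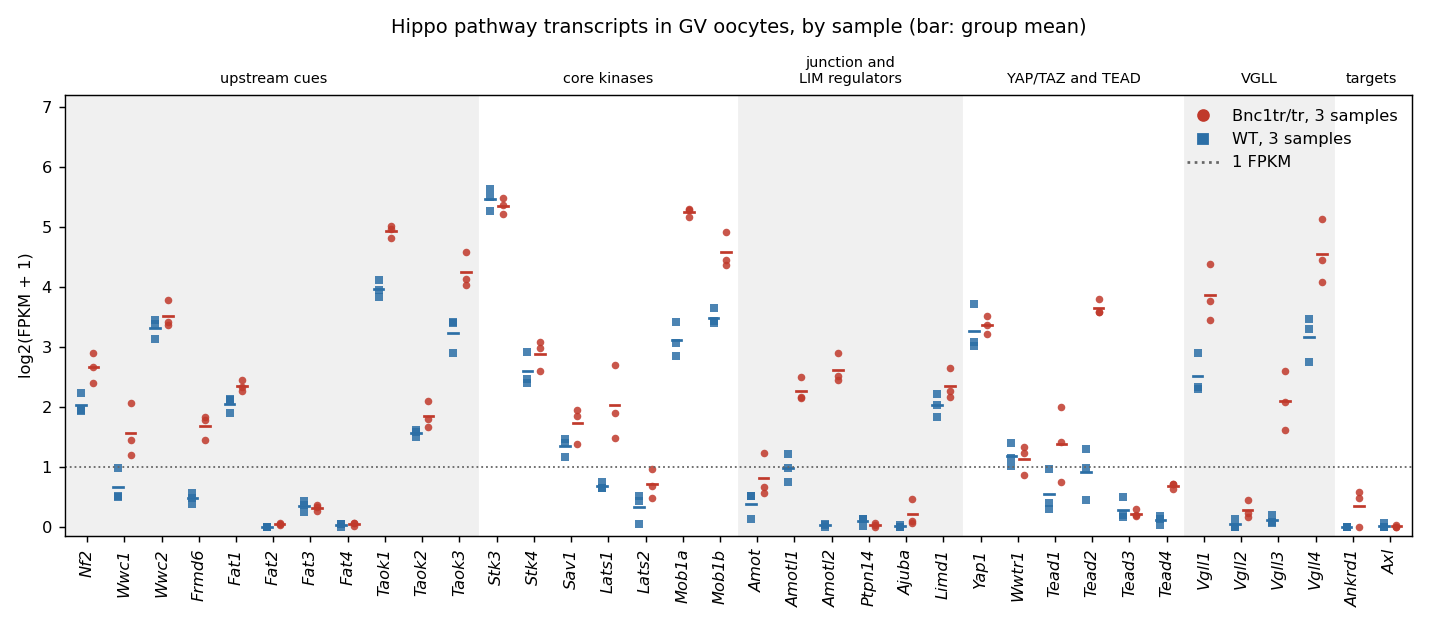
Level of each of the 36 listed Hippo pathway genes in every library, as log2(FPKM + 1) on the y axis, with genes on the x axis in order of their layer. Circles are the 3 Bnc1tr/tr libraries, squares the 3 WT libraries, horizontal bars the group means of the plotted values and the dotted line 1 FPKM. *Stk3* had the highest mean in both groups, and the Bnc1tr/tr circles of *Mob1a*, *Amotl2*, *Tead2* and *Vgll3* lie well above the WT squares.

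Markers of other ovarian cells moved with genotype too. Over all tested genes, 24.1% were called higher. The summed level of 8 listed theca or stroma markers was 11.2 to 15.3 FPKM in Bnc1tr/tr and 2.62 to 3.71 in WT libraries. Of these, 2 of 2 tested were called higher (*Cyp11a1* and *Dcn*), while *Cyp17a1*, *Lhcgr*, *Col1a1*, *Pdgfra* and *Acta2* were under 1 FPKM in every library. The 12 listed granulosa or cumulus markers summed to 43.9 to 61.2 FPKM in Bnc1tr/tr and 22.9 to 41.2 in WT, with 2 of 5 tested called higher (*Fshr* and *Kitl*), and *Foxl2*, *Amhr2*, *Inhba*, *Fst* and *Has2* were under 1 FPKM throughout. Most of that sum was *Cyp19a1* (27.49, 44.41 and 33.46 against 23.45, 28.98 and 17.41 FPKM). Other members of the list had their top values in WT, among them *Inha* (0.18, 1.81 and 0.09 against 6.78, 3.45 and 0.04 FPKM), *Gja1* (0.63, 0.68 and 0.20 against 2.77, 1.14 and 0.06 FPKM) and *Hsd17b1* (0.21, 0.38 and 0 against 0.93, 1.43 and 0 FPKM). The 3 listed surface epithelial markers summed to 3.02 to 5.27 against 0.67 to 1.04 FPKM. The 8 immune markers ranged from 2.5 to 54.5 FPKM in Bnc1tr/tr, the top value coming from *Lyz2* in replicate 2, and from 1.39 to 3 in WT, with *Ptprc* under 1 FPKM in all. The 5 listed endothelial markers summed to 5.62 to 8.48 FPKM in Bnc1tr/tr and 10.1 to 11.8 in WT. The lower sum came from *Pecam1* (5.13, 3.75 and 3.16 against 9.85, 9.92 and 7.55 FPKM), while *Kdr* (1.54, 0.64 and 0.53 against 0.10, 0.12 and 0.07 FPKM) stood above WT in every library and *Cdh5* was at most 0.02 FPKM. The part of these other cells' RNA in the differences below was not tested for any layer.

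**Figure D2:**
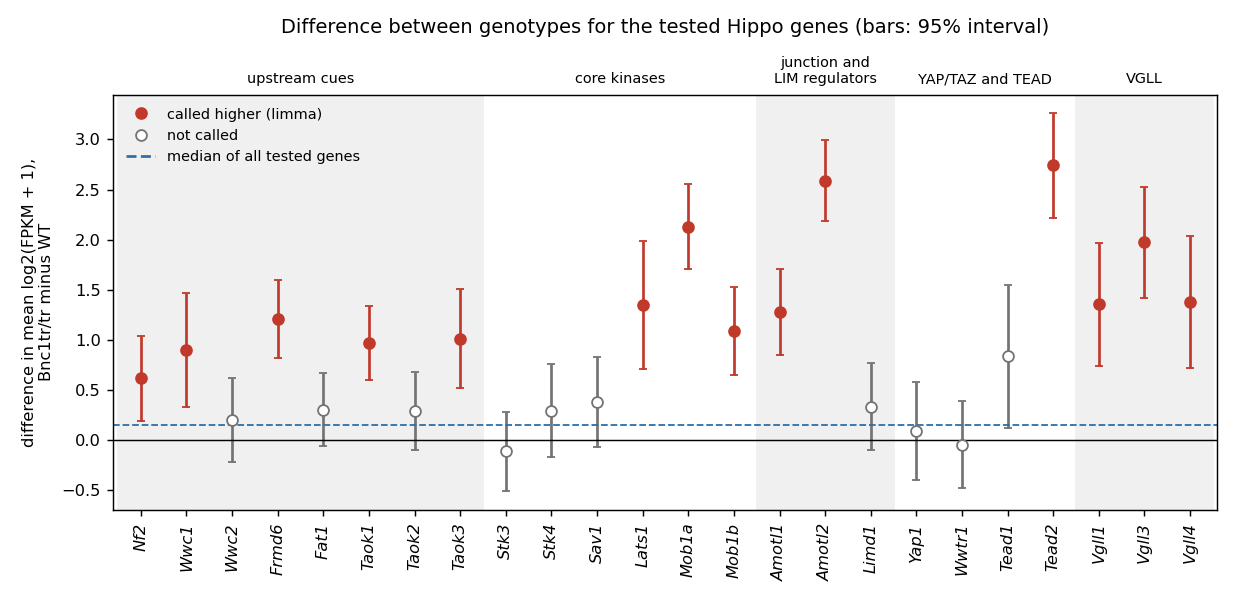
Difference in mean log2(FPKM + 1), Bnc1tr/tr minus WT, for the 24 tested Hippo genes by layer. Points are limma estimates from 3 libraries per group, vertical bars their 95% intervals, filled points genes called higher, open points genes not called, and the dashed line the median of all tested genes (0.15). The largest differences were those of *Tead2* (2.74) and *Amotl2* (2.59), while the interval of *Yap1* ran from -0.40 to 0.58.

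The promoters of 5 genes are shown first, those of *Nf2*, at the head of the pathway, and of the 4 genes with the largest differences, a choice made after the values were seen. Each is the 250 bases before a transcription start site in RefSeq on build GRCm38.p6, 5′ to 3′ on the strand of the gene, with the word GGAATG or its other-strand form CATTCC in capitals, the core of the sequence that TEAD factors are known to bind. They lie at chr11:4849545-4849794 (minus strand) for *Nf2*, which has a second start site not shown, chr6:83325789-83326038 (plus strand) for *Mob1a*, chr9:102717554-102717803 (plus strand) for *Amotl2*, chr7:45215542-45215791 (plus strand) for *Tead2* and chr16:65814939-65815188 (plus strand) for *Vgll3*.
Nf2: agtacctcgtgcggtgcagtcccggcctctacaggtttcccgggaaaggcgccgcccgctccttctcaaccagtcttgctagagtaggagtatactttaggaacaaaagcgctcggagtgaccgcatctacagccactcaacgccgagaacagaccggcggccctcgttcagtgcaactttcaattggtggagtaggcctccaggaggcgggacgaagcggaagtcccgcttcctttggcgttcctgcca
Mob1a: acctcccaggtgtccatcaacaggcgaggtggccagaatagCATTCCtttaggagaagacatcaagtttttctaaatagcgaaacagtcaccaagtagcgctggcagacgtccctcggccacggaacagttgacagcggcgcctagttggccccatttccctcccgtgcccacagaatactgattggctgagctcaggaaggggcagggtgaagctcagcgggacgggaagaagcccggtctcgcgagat
Amotl2: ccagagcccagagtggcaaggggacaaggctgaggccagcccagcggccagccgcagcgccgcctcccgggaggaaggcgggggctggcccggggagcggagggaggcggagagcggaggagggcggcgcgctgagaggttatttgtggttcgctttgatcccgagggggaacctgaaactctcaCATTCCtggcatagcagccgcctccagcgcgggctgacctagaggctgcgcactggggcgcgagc
Tead2: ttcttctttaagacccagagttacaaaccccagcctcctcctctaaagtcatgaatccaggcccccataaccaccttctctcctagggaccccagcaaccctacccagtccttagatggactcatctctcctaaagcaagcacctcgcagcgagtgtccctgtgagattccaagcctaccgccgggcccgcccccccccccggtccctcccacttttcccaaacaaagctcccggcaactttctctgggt
Vgll3: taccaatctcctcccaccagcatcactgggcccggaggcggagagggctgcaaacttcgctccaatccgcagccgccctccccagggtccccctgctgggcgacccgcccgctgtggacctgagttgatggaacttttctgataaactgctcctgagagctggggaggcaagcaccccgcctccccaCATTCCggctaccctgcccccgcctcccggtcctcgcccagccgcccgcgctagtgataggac

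*Mob1a*, *Amotl2* and *Vgll3* held 1 copy of the word each, and these stretches of *Nf2* and *Tead2* held 0. RefSeq windows of 300 bases, from 250 before to 50 after a start site, were matched for 32 of the 37 genes, with 37 windows in all since some genes have several start sites. On either strand, 19 of these 37 windows (51.4%) held the TEAD word, beside 14.7% of 32851 windows of all genes. Counted by gene, a window with the word was found for 17 of 32 Hippo genes (53.1%) and 16.6% of 27025 genes. In the 250 bases before a start site alone, it was found for 16 of the 32 (50%) and for 14.4% of all. It was found for 5 of the 14 genes called higher, and for 5 of the 7 genes tested, not called and matched to a window, so the word was not more frequent among the genes called higher.

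The TEAD word was the one planned, and 7 further words were searched after its share had been seen, making 8 in all. The share in Hippo gene windows was higher than in all windows for 3 words and lower for 5. The other words above the background were the GC box GGCGGG, in 26 of the 37 windows (70.3%) and in 35.3% of all windows, and the E box CACGTG, in 8 windows (21.6%) and in 7.15% of all. Rearranged or altered forms of the TEAD word were less frequent than in all windows. GTAAGG, its reversal, was in 0 of the 37 windows and 8.70% of all, GGATAG in 2 (5.41%) and 7.86%, GGAATC, which shares 5 letters with it, in 3 (8.11%) and 11.1%, and GAATGG in 2 (5.41%) and 13%. The AP-1 word TGACTCA was in 0 of the 37 windows and 5.20% of all. Windows of 1 gene can overlap, a match is a run of letters and no measured binding, and no test was made.

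Among the upstream genes, 8 of 12 were tested, 5 were higher in Bnc1tr/tr oocytes, 0 were lower, and their median difference was 0.76, beside 24.1% higher and a median of 0.15 over all tested genes. Without *Wwc1* and *Frmd6*, which passed the filter only through Bnc1tr/tr, 3 of 6 were higher, with a median of 0.46. The same limit over all genes left 19.0% higher and a median of 0.09. *Nf2* (chr11:4765845-4849536, GRCm38) encodes merlin, a scaffold that brings LATS kinases to the membrane. Its level was 6.42, 5.36 and 4.29 FPKM in Bnc1tr/tr replicates 1 to 3 and 3.71, 2.81 and 2.85 FPKM in WT replicates 1 to 3. Every Bnc1tr/tr library was above every WT library, with replicate 3 of Bnc1tr/tr closest to replicate 1 of WT. The means were 5.36 ± 1.07 and 3.12 ± 0.508 FPKM (SD, n = 3 each), 1.72 times the WT level, and the difference was 0.62 (SE 0.19, limma adjusted p = 0.034), or 0.47 above the median of all genes. This call did not hold under either scaling, with a difference of 0.44 (adjusted p = 0.083) after median-ratio scaling and 0.23 (adjusted p = 0.32) after quantile normalization. Nor did it hold without Bnc1tr/tr replicate 1 (adjusted p = 0.11) or 2 (0.086), or without WT replicate 2 (0.12) or 3 (0.062), although *Nf2* was higher in Bnc1tr/tr under every alternative run.

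KIBRA, the product of *Wwc1*, and the FERM protein encoded by *Frmd6* work beside merlin. *Frmd6* stood at 2.55, 2.44 and 1.73 FPKM in Bnc1tr/tr and at 0.47, 0.40 and 0.30 FPKM in WT, and *Wwc1* at 3.19, 1.28 and 1.72 against 0.97, 0.41 and 0.43 FPKM. Neither pair of groups overlapped, though a single Bnc1tr/tr library, replicate 1, carried the top value of *Wwc1*. The difference was 1.21 for *Frmd6* (SE 0.17, limma adjusted p = 0.00085) and 0.90 for *Wwc1* (SE 0.25, adjusted p = 0.024). Of the 31-base words of the *Frmd6* transcripts, 17.2% also occurred in other genes, mostly *Gm5780*, so its level is less certain. *Wwc1* was no longer called after quantile normalization (0.37, adjusted p = 0.26), with no filter on low values (adjusted p = 0.062), or without Bnc1tr/tr replicate 1 (0.071), WT replicate 2 (0.086) or WT replicate 3 (0.052). Its paralog *Wwc2* was the more abundant of the pair in every library, at 10.6 ± 1.93 and 9.01 ± 1.15 FPKM (SD, n = 3 each), and was not called (difference 0.20, 95% interval -0.22 to 0.62).

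The TAO kinases phosphorylate and switch on the MST kinases. *Taok1* was at 31.38, 27.19 and 30.22 FPKM in Bnc1tr/tr and 13.18, 14.44 and 16.27 FPKM in WT, and *Taok3* at 22.86, 16.47 and 15.27 against 9.46, 9.63 and 6.41 FPKM. Both were higher in each Bnc1tr/tr library than in any WT library, at 2.02 and 2.14 times the WT mean. The difference was 0.97 for *Taok1* (SE 0.16, limma adjusted p = 0.0021) and 1.01 for *Taok3* (SE 0.22, adjusted p = 0.0077). The third, *Taok2*, was at 2.64 ± 0.587 and 1.95 ± 0.117 FPKM (SD, n = 3 each) and was not called (0.29, interval -0.10 to 0.68). Of the FAT cadherins, large adhesion proteins that act as receptors of the pathway, *Fat1* made up over 90% of the family's FPKM in each library. Its means of 4.09 ± 0.318 and 3.13 ± 0.372 FPKM (SD, n = 3 each) did not overlap, yet it was not called (0.30, interval -0.06 to 0.67). *Fat2*, *Fat3* and *Fat4* did not exceed 0.35 FPKM in any library and were not tested.

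The core kinase layer had 6 of 7 genes tested, of which 3 were higher and 0 lower, with a median difference of 0.74, beside 24.1% higher over all tested genes. Without *Lats1*, which passed the filter only through Bnc1tr/tr, 2 of 5 were higher, with a median of 0.38. The same limit over all genes left 19.0% higher and a median of 0.09. The MST kinases start the cascade. *Stk3*, which encodes MST2 and was the most abundant Hippo gene in both genotypes, was at 43.31, 35.94 and 40.03 FPKM in Bnc1tr/tr and 37.19, 43.91 and 48.69 FPKM in WT. *Stk4*, which encodes MST1, was at 5.07, 7.47 and 6.85 against 6.49, 4.29 and 4.52 FPKM. The groups overlapped for both, and neither was called, with 95% intervals of -0.51 to 0.28 for *Stk3* and -0.17 to 0.76 for *Stk4*. *Sav1*, the scaffold that pairs MST with LATS, was at 1.60, 2.59 and 2.86 FPKM in Bnc1tr/tr and 1.62, 1.24 and 1.76 in WT. It overlapped between groups through Bnc1tr/tr replicate 1 and was not called (0.38, interval -0.07 to 0.83). A share of 25.4% of its exon bases is also covered by *Atl1* on the opposite strand, and the library does not keep strand.

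MOB1 proteins bind LATS and help to activate it, and both of their genes were higher. *Mob1a* (chr6:83326016-83343776) was at 37.72, 34.60 and 38.15 FPKM in Bnc1tr/tr and 9.62, 6.16 and 7.39 FPKM in WT. *Mob1b* was at 20.84, 19.56 and 29.22 against 11.44, 9.47 and 9.79 FPKM. The 2 genotypes were far apart for *Mob1a*, whose lowest Bnc1tr/tr library exceeded the highest WT library several times over, and separate for *Mob1b*. *Mob1a* was 4.77 times its WT mean (difference 2.13, SE 0.19, limma adjusted p = 5.3e-05) and *Mob1b* 2.27 times (1.09, SE 0.19, adjusted p = 0.0029). By mean FPKM, *Mob1a* ranked 8 among the listed Hippo genes in WT and 2 in Bnc1tr/tr. None of its 31-base words occurred in another gene.

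LATS kinases carry out the last phosphorylation step, on YAP and TAZ. *Lats1* was at 1.78, 2.73 and 5.47 FPKM in Bnc1tr/tr and at 0.56, 0.67 and 0.56 FPKM in WT. The WT libraries lay close together, whereas those of Bnc1tr/tr spread widely and all stood above them. The difference was 1.35 (SE 0.28, limma adjusted p = 0.0067), and it missed the threshold after quantile normalization (0.84, adjusted p = 0.068). *Lats2* was low, at 0.94, 0.61 and 0.39 FPKM against 0.03, 0.43 and 0.34 FPKM, overlapped between genotypes and was not tested because its mean was under 1 FPKM. With no filter its difference was 0.38 (limma adjusted p = 0.20). Its level is uncertain in any case, as 42.4% of its exon bases are shared with *Gm49361* on the same strand.

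Of the 6 junction and LIM proteins that act on LATS or YAP, 3 were tested and 2 were higher, beside 24.1% of all tested genes. Both of those, *Amotl1* and *Amotl2*, passed the filter only through Bnc1tr/tr, and the 1 gene with at least 1 FPKM in both groups, *Limd1*, was not called. Angiomotins hold YAP at cell junctions. *Amotl2* (chr9:102716672-102733418) was at 6.41, 4.45 and 4.69 FPKM in Bnc1tr/tr and listed at 0, 0.03 and 0.02 FPKM in WT. *Amotl1* was at 4.64, 3.45 and 3.40 against 0.98, 1.31 and 0.68 FPKM. WT oocytes thus had next to no reads of *Amotl2*, below the level of 3 fragments on 1 kb, while every Bnc1tr/tr library had several FPKM. The difference was 2.59 for *Amotl2* (SE 0.18, limma adjusted p = 1.4e-05) and 1.28 for *Amotl1* (SE 0.19, adjusted p = 0.0011). The size for *Amotl2* depends on the pseudocount, since 0.1 in place of 1 gave 5.49. *Amot*, the founding member of the family, was at 0.58, 1.35 and 0.47 against 0.42, 0.43 and 0.10 FPKM and was not tested. *Limd1*, whose LIM protein restrains LATS, was at 4.16 ± 0.936 and 3.08 ± 0.530 FPKM (SD, n = 3 each), overlapped between groups and was not called (0.33, interval -0.10 to 0.77). *Ajuba*, a related LIM gene, and the phosphatase gene *Ptpn14* did not exceed 0.38 FPKM in any library.

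YAP and TAZ are the effectors that the kinases act on. *Yap1* was at 9.30, 8.22 and 10.34 FPKM in Bnc1tr/tr and 7.44, 7.08 and 12.04 FPKM in WT. *Wwtr1*, which encodes TAZ, was at 1.5, 1.34 and 0.82 against 1.21, 1.62 and 1.02 FPKM. For both genes the ranges of the genotypes lay within or across each other. The difference was 0.09 for *Yap1* (95% interval -0.40 to 0.58, limma adjusted p = 0.78) and -0.05 for *Wwtr1* (interval -0.48 to 0.39, adjusted p = 0.88). With 3 libraries per group, changes within these intervals are not excluded. *Yap1* was negative under both scalings (-0.11 and -0.21), and *Wwtr1* was called lower with normalized quantiles (-0.59, adjusted p = 0.031).

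The TEAD factors, the DNA-binding partners of YAP and TAZ, differed from gene to gene. Of the 6 YAP, TAZ and TEAD genes, 4 were tested, 1 was higher and 0 were lower, beside 24.1% higher over all tested genes. Without *Tead1* and *Tead2*, which passed the filter only through Bnc1tr/tr, 0 of 2 were higher, with a median difference of 0.02. The same limit over all genes left 19.0% higher and a median of 0.09. *Tead2* (chr7:45215753-45233644) was at 12.82, 10.96 and 10.93 FPKM in Bnc1tr/tr and 0.97, 1.46 and 0.36 FPKM in WT. *Tead1* was at 1.67, 0.67 and 3.01 against 0.32, 0.23 and 0.94 FPKM. The genotypes were widely separate for *Tead2* and overlapped for *Tead1*, where Bnc1tr/tr replicate 2 fell below WT replicate 3. *Tead2* had the largest difference of the tested Hippo genes (2.74, SE 0.23, limma adjusted p = 4.2e-05) and ranked 18 by mean FPKM in WT and 8 in Bnc1tr/tr. *Tead1* was not called (0.84, interval 0.12 to 1.55, adjusted p = 0.075), and it was called without Bnc1tr/tr replicate 2 (1.16, adjusted p = 0.022) or without WT replicate 3 (1.04, adjusted p = 0.041). *Tead4* was low but separate, at 0.64, 0.55 and 0.64 against 0.02, 0.13 and 0.10 FPKM. Its mean kept it out of the test, and with no filter its difference was 0.57 (limma adjusted p = 0.0060). *Tead3*, at 0.14, 0.13 and 0.23 against 0.12, 0.14 and 0.41 FPKM, overlapped between genotypes and was too low to be tested.

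VGLL proteins are cofactors that bind TEAD in place of YAP. All 3 tested genes of the 4 were higher, beside 24.1% of all tested genes. Without *Vgll3*, which passed the filter only through Bnc1tr/tr, 2 of 2 were higher. Over all genes with at least 1 FPKM in both groups, 19.0% were higher. *Vgll4*, whose product is known to compete with YAP for TEAD, was at 33.98, 20.77 and 15.80 FPKM in Bnc1tr/tr and 9.99, 8.76 and 5.73 FPKM in WT. *Vgll1* was at 19.88, 12.63 and 9.90 against 4.05, 6.45 and 3.92 FPKM, and *Vgll3* at 5.05, 3.21 and 2.04 against 0.06, 0.04 and 0.15 FPKM. The groups did not overlap for any of the 3, as for 32.7% of all tested genes with Bnc1tr/tr higher. In all 3 genes replicate 1 was the highest of the Bnc1tr/tr libraries and replicate 3 the lowest. The difference was 1.38 for *Vgll4* (SE 0.29, limma adjusted p = 0.0070), 1.36 for *Vgll1* (SE 0.27, adjusted p = 0.0051) and 1.98 for *Vgll3* (SE 0.24, adjusted p = 0.00038). A pseudocount of 0.1 gave 4.22 for *Vgll3*, so its size depends on the pseudocount at these low WT values. *Vgll2* did not exceed 0.37 FPKM in any library.

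Of the 2 target genes, neither was tested. *Ankrd1*, a widely used readout of YAP activity, was at 0.39, 0 and 0.49 FPKM in Bnc1tr/tr and listed at 0 in all WT libraries, and *Axl*, a receptor tyrosine kinase gene, did not exceed 0.04 FPKM.

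The balance between paralogs was read within each library, where a share of the family's FPKM sum does not depend on how libraries are scaled to each other. *Mob1a* made up 64.4%, 63.9% and 56.6% of the MOB1 sum in Bnc1tr/tr and 45.7%, 39.4% and 43.0% in WT. *Amotl2* made up 55.1%, 48.1% and 54.8% of the angiomotin sum in Bnc1tr/tr and 0%, 1.69% and 2.5% in WT. The most abundant paralog thus differed between genotypes in both families, *Mob1b* and *Amotl1* in each WT library and *Mob1a* and *Amotl2* in each Bnc1tr/tr library. In contrast, *Stk3* held 85.9% ± 3.39 and 89.2% ± 3.56 of the MST sum and *Yap1* 88.2% ± 3.81 and 86.5% ± 5.42 of the YAP and TAZ sum (Bnc1tr/tr and WT, SD, n = 3 each), and these overlapped. The TEAD sum was 12.3 to 15.3 FPKM in Bnc1tr/tr and 1.43 to 1.96 FPKM in WT. *Tead2* held 84.0%, 89.0% and 73.8% of it in Bnc1tr/tr and 67.8%, 74.5% and 19.9% in WT, and the genotypes overlapped. *Vgll3* held 8.19% ± 0.758 of the VGLL sum in Bnc1tr/tr and 0.739% ± 0.691 in WT, while *Vgll1* overlapped at 34.5% ± 1.01 and 36.9% ± 7.37 (SD, n = 3 each). *Vgll4* held 57.3%, 56.5% and 56.7% of it in Bnc1tr/tr and 70.4%, 57.4% and 58.5% in WT, without overlap. Its mean share was lower in Bnc1tr/tr by 5.27 percentage points, and by 1.12 without WT replicate 1. No test was made of these shares.

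**Figure D3:**
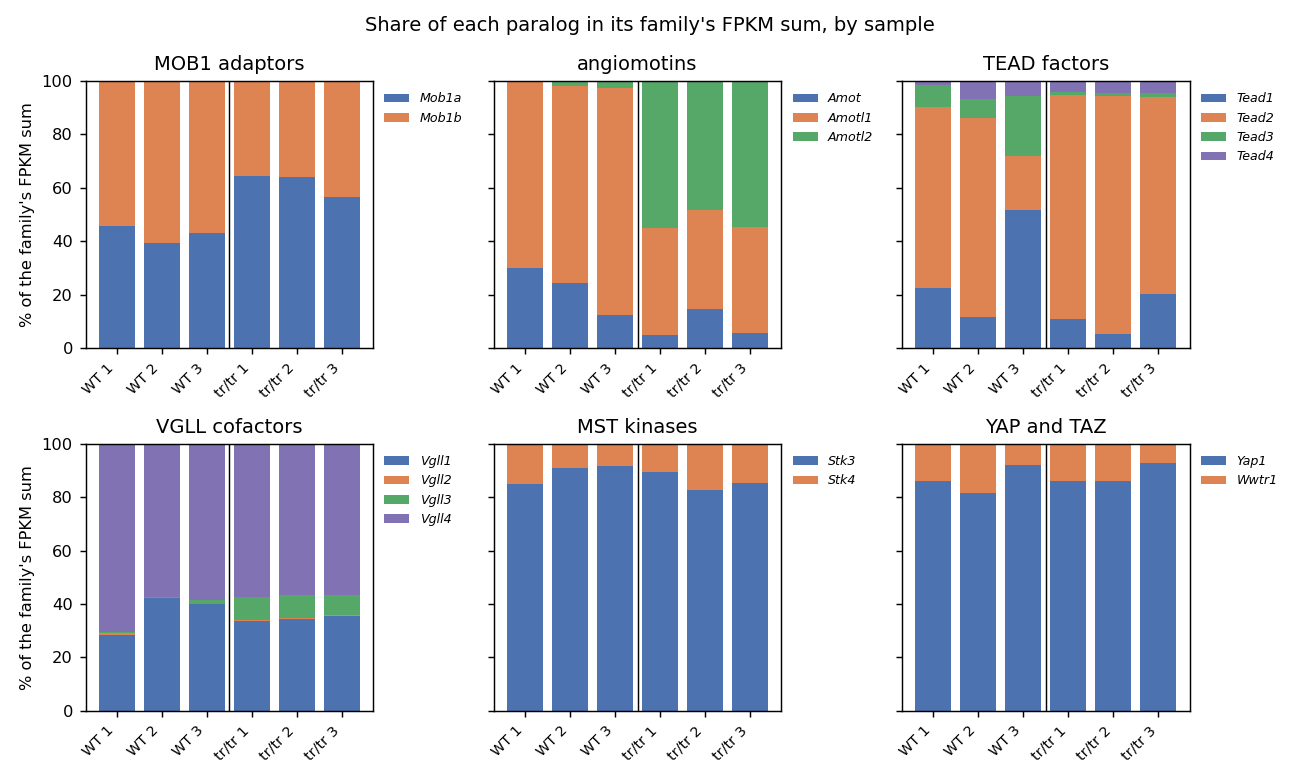
Share of each paralog in the FPKM sum of its family, in percent on the y axis, for each WT library (left of the line) and each Bnc1tr/tr library (tr/tr, right of the line). Stacked bars add to 100%. *Mob1a* and *Amotl2* take larger shares in all 3 Bnc1tr/tr libraries, while the MST, YAP and TAZ shares overlap between genotypes.

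Scaling the libraries in other ways lowered the difference of each of the 24 tested Hippo genes, as it did the median of all genes. After quantile normalization 11 Hippo genes were called higher and 1 lower, *Wwtr1*, beside 15.5% higher and 17.8% lower over all tested genes. After median-ratio scaling 13 were higher and 0 lower, beside 18.5% and 14.5%. *Mob1a*, *Amotl2* and *Tead2* kept differences of at least 1.91, 2.08 and 2.34 over all 12 alternatives.

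**Figure D4:**
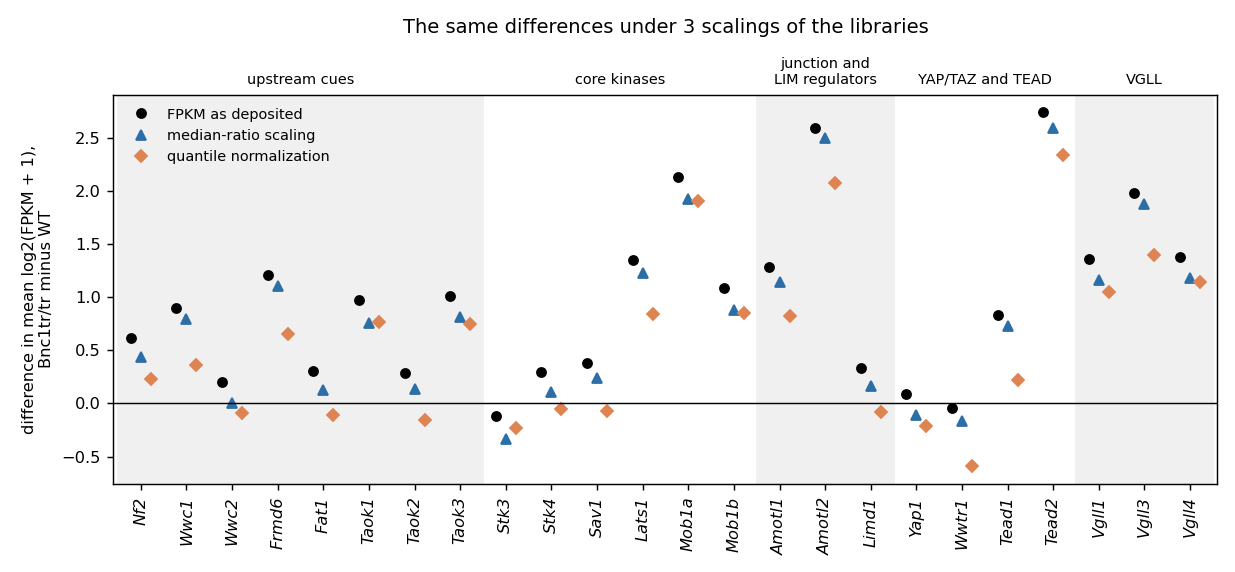
Difference in mean log2(FPKM + 1), Bnc1tr/tr minus WT, of the 24 tested Hippo genes under 3 scalings. Circles are the deposited FPKM, triangles median-ratio scaling and diamonds quantile normalization. *Nf2* falls from 0.62 to 0.44 and 0.23, whereas *Tead2* stays above 2.3.

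A wider list of 75 other genes of the pathway was read in the same fit, of which 71 were listed and 52 tested. It covered polarity and junction proteins, further kinases, RASSF proteins, the STRIPAK phosphatase, 14-3-3 proteins, ubiquitin ligases and targets. By limma, 13 of the 52 (25.0%) were higher in Bnc1tr/tr, next to 24.1% of all tested genes, and 1 was lower, next to 7.68% of all. The median difference was 0.26. The counts moved with the scaling of the libraries, to 11 higher and 7 lower after median-ratio scaling and to 6 higher and 6 lower with normalized quantiles. In the deposited values, *Gli2* and *Map4k1* passed the filter only through Bnc1tr/tr. Counting only genes with at least 1 FPKM in both groups left 11 of this list higher and 1 lower. The same limit over all genes left 19.0% higher. Of the 20 targets on this list, 6 were tested, 3 were higher and 0 were lower, beside 24.1% higher over all tested genes. The median difference of these 6 was 0.51. *Gli2*, a listed target that encodes a Hedgehog pathway transcription factor, was at 10.48, 6.79 and 6.53 FPKM against 0.89, 0.76 and 1.05 FPKM (difference 2.21, SE 0.20, limma adjusted p = 6.8e-05). *Gadd45a*, a listed target and stress response gene, was at 9.56, 6.21 and 8.20 against 1.47, 1.32 and 2.20 FPKM (1.75, SE 0.21, adjusted p = 0.00030). *Cdh1*, the E-cadherin gene, was at 29.71, 27.70 and 27.68 against 11.36, 12.06 and 11.78 FPKM (1.21, SE 0.15, adjusted p = 0.00041). *Gli2*, *Gadd45a* and *Cdh1* were clear of the WT range in each Bnc1tr/tr library. Among the 52 tested genes of this list, the groups did not overlap for 20 with Bnc1tr/tr higher and 6 with it lower. Over all tested genes, 32.7% did not overlap with Bnc1tr/tr higher. Smaller increases passed the test for the RAS effector gene *Rassf5* (0.91), the polarity kinase genes *Mark2* (0.88) and *Mark3* (0.85) and the kinase gene *Map4k1* (0.88). The gene that was lower was *Ywhaq*, a 14-3-3 gene whose family holds phosphorylated YAP in the cytoplasm, at 142.23, 151.65 and 152.12 against 250, 231.89 and 188.55 FPKM (-0.58, SE 0.17, adjusted p = 0.031). Without Bnc1tr/tr replicate 2 or 3, or WT replicate 1 or 2, 0 genes of this list were lower. *Cyr61*, a target of YAP, was at 0.180 ± 0.312 and 0.0733 ± 0.127 FPKM (SD, n = 3 each) and was not tested.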

How the data were processed

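GV oocyte cDNA was amplified by a modified Smart-seq2 procedure, without molecular identifiers, and sequenced on an Illumina platform. The authors deposited 1 table per library in FPKM, rounded to 2 decimals, for 6 libraries. The submitters' processing notes name HISAT2 2.0.4, Bowtie2 2.2.5, RSEM 1.2.12 and build GRCm38.p6, and the annotation is not given in the sources used here. As FPKM values share the total of their library, a few abundant transcripts can move the rest.

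Groups came from the genotype label. In 25 symbols a spreadsheet date was replaced through the NCBI Gene ID. log2(FPKM + 1) was fitted with limma 3.58.1 in R 4.3.3 and adjusted by Benjamini-Hochberg over 10560 genes. All tested genes were kept in each alternative except the one without a filter. Members and lists were chosen with earlier results of these data known. Every Hippo gene was named, and in full those called and the core genes; of other Hippo genes, at most 8 called in each direction by size, of which 1 is not reported here. Exon overlap and shared 31-base words came from GENCODE M21, promoters from RefSeq. Low FPKM values fall on steps, from which depth was estimated. Scripts were tested on simulated data. Figures were drawn with matplotlib 3.10.9.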

Additional observations from a re-analysis of the deposited data

How the results depend on the processing

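With 3 libraries per group and no counts, small differences and genes under 1 FPKM were not resolved. The number of Hippo genes higher in Bnc1tr/tr was 11 to 15 over 12 alternatives and 12 to 14 on leaving out 1 library. Counting genes with at least 1 FPKM in both groups, a limit chosen after the data were seen, left 7. Of 288 values for the 24 tested Hippo genes, 260 kept direction and call, 12 lost a call, 4 gained one and 12 changed sign. No gene called higher changed sign. Quantile normalization gave 1 lower Hippo gene in place of 0, 6 in place of 13 other Hippo genes higher and 6 in place of 1 lower. Median-ratio scaling gave 7 lower. Leaving out 1 library gave 0 to 2 lower. Signs that changed were those of *Wwc2* (-0.091), *Fat1* (-0.11), *Taok2* (-0.15), *Stk4* (-0.056), *Sav1* (-0.074), *Limd1* (-0.078) and *Yap1* (-0.21) after quantile normalization. *Yap1* also changed after median-ratio scaling (-0.11) and without WT replicate 1 (-0.002) or 2, as did *Wwtr1* without Bnc1tr/tr replicate 3 or WT replicate 2 (0.058). Leaving out 1 library moved *Yap1* between -0.033 and 0.312 and *Wwtr1* between -0.137 and 0.092. The cause was not tested.

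With the replicate number as a block, 15 Hippo genes were higher and 0 lower, the added one being *Tead1* (adjusted p = 0.011), and of the other Hippo genes 14 were higher and 2 lower. Same-numbered libraries correlated at 0.28, -0.03 and 0.12 in their deviations from the group means, so the numbers were not taken as a pairing.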
